A study of Mus musculus with 19 samples.

Results

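Type I interferon response genes are the genes that a cell switches on after type I interferon binds its receptor, together with the receptor chains and the factors that carry the signal. A list of 37 such mouse genes was followed here, each through its brightest probe set that carries a single gene symbol, out of 23156 genes with such a probe set on either of 2 array designs. Of the 37 genes, 33 had a single-symbol probe set in both tables, 34 in the spleen table and 35 in the lymph node table. A gene entered a test when at least 2 arrays of its table reached that table's median, and 30 of the listed genes did so in each table. In the spleen table, Oas1a and Dtx3l had only probe sets shared with other genes, Ifi44 had none, and Ifit2, Oas2, Rtp4 and Ddx60 were too dim to test. In the lymph node table, Isg15 had only a shared probe set, Ifi44 had none, and Ifit2, Mx2, Cmpk2, Xaf1 and Ddx60 were too dim to test.

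The arrays measured total RNA from sorted type 1 conventional dendritic cells (DC1), which take up dead cells and present their antigens to CD8 T cells. All mice were on the C57Bl/6j background, and 19 arrays fall into 7 groups. From skin-draining lymph nodes (inguinal, cervical and brachial, SDLN) came 3 arrays of migratory Batf3-/- Irf8VENUS+ DC1, 2 of migratory WT Irf8VENUS+ DC1, 3 of resident Batf3-/- Irf8VENUS+ DC1 and 3 of resident WT Irf8VENUS+ DC1. Spleens of female mice gave 3 Batf3-/- Irf8VENUS+ arrays, 3 WT Irf8VENUS+ arrays and 2 WT Irf8VENUS- arrays. Every lymph node group carries the Irf8VENUS reporter allele, controls included, so those comparisons are all made on that background. In the nodes, B220- EpCam- CD11c+ MHCII+ CD24+ CD172- cells were split into migratory (MHCIIhi CD11cint) and resident (MHCIIint CD11chi) cells, and in the spleen the 2 Irf8VENUS+ groups each hold 2 arrays sorted as CD24+XCR1+ and 1 array sorted as CD24+ alone. The labels give no sex for the node arrays and no age, and they do not say how many mice stand behind an array or whether replicates came from separate animals. The p-values below therefore measure the spread between these arrays, which may be technical.

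In the interferon pathway, IFNAR1 and IFNAR2 form the receptor, and the kinases bound to them activate STAT2, which acts with IRF9 at the interferon-stimulated response element (ISRE) in the promoters of target genes. IRF7 and IRF1 add further transcription, RIG-I-like receptors such as MDA5 (Ifih1) sense viral RNA upstream, and USP18 damps the receptor as feedback. Resident DC1 reach the node from blood, while migratory DC1 mature in the skin, gain the chemokine receptor CCR7 and travel through lymph. BATF3 is the partner with which IRF8 maintains its own gene in DC1, which is why the loss of Batf3 is studied in these cells.

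The promoters of members on which the lymph node results turn are shown first. They show what the ISRE looks like in genes that were higher in migratory WT cells (Ifit1, Ifit3 and Rsad2) and in a lower one (Stat2). Irf7, which was also lower, holds no match in its window. Each run is the 250 bases before the RefSeq transcription start on GRCm38.p6, written 5′ to 3′ on the gene's strand, and capitals mark matches to the ISRE core, searched on both strands as 2 copies of GAAA with any 2 bases between them. Ifit1 lies at chr19:34640639-34640888 on the plus strand, Ifit3 at chr19:34583279-34583528 on the plus strand, Rsad2 at chr12:26456453-26456702 on the minus strand, Stat2 at chr10:128270248-128270497 on the plus strand, and Irf7 at chr7:141266425-141266674 on the minus strand.
Ifit1: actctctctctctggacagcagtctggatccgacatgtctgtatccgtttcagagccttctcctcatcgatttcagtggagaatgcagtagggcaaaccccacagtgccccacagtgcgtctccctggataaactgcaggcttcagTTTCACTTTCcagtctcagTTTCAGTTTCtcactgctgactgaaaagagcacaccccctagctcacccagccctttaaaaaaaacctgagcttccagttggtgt
Ifit3: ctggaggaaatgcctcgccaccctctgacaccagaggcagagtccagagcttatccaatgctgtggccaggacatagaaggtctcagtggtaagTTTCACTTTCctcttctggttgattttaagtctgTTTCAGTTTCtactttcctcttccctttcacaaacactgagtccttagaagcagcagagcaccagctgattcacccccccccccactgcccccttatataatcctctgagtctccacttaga
Rsad2: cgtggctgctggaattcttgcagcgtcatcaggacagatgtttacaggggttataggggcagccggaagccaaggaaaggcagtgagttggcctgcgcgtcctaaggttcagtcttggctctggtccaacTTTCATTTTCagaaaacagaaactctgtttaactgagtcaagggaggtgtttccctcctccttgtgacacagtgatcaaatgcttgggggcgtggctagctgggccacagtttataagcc
Stat2: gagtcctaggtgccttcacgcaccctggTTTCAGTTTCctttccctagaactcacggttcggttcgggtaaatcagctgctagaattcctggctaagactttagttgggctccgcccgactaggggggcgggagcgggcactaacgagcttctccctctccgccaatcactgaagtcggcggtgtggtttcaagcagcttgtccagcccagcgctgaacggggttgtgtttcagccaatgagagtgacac
Irf7: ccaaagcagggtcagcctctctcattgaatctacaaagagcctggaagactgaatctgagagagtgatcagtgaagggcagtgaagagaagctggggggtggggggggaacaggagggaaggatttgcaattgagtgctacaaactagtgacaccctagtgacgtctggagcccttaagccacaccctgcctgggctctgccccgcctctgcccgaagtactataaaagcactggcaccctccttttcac
The first base of the match stood 104 and 85 bases before the start in Ifit1, 156 and 122 bases in Ifit3, 120 bases in Rsad2 and 222 bases in Stat2, and these letters were not in the Irf7 window. Over the RefSeq windows of 300 bases (250 before and 50 after a start), 12 of the 28 listed genes with a window held at least 1 match, which is 42.9% of them, against 3.99% of all 27025 genes with a window. The AP-1 letters TGANTCA, the kind of site that BATF family dimers bind, were in 6 of the 28 genes (21.4%), against 8.97% of all genes. A match is a run of letters and not a measured binding site.

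The values used are log2 of the probe-set intensity as the submitters' RMA processing left it, so a difference of 1 is a doubling, and levels are compared only within a probe set and within a table. In Batf3-/- arrays the Batf3 probe set itself differed by -3.17 ± 0.20 in migratory, -2.64 ± 0.17 in resident and -3.69 ± 0.28 in spleen DC1 (log2 difference, SE), which checks the genotype labels. The 7 DC1 markers summed to 3461 to 5724 linear intensity units on migratory Batf3-/- arrays and 2264 to 3180 on migratory WT arrays. The sum was 11534 to 11980 on resident Batf3-/- and 15840 to 18046 on resident WT arrays. Irf8 is among the 7 and is bright, so the sum does not show the direction of the others between genotypes. All 7 were lower in migratory than in resident cells of both genotypes, and 6 of 6 DC maturation markers were higher. On spleen arrays only 6 of the 7 DC1 markers had a probe set, and these summed to 8633 to 13516 units. That sum comes from another array design and is not set against those of the nodes. Clec9a, the DC1 receptor for dead cells, read 6.54, 6.38 and 6.26 in migratory Batf3-/- arrays and 6.95 and 7.68 in migratory WT arrays, against 10.06 to 10.47 in all resident arrays. The B cell markers summed to 226 to 286 units on migratory WT arrays, against 79.0 to 109 on resident WT arrays, and 3 of the 3 tested were higher there. The T cell markers summed to 378 to 776 against 179 to 240, and 2 of 3 were higher. On migratory Batf3-/- arrays the B cell sum was 109 to 210 and on resident Batf3-/- arrays 89.0 to 119, with no marker of either cell type called. The standard deviation of all log2 values on an array was 2.07 to 2.16 on migratory Batf3-/- arrays, 1.96 and 2.03 on migratory WT arrays and 2.16 to 2.23 on resident arrays. No marker is at 0 on any array, and the part of lymphocyte RNA and of the narrower spread in the results below was not tested. The first resident WT array stood apart, with cDC2 markers summing to 1309 units against 293 and 353 on the other resident WT arrays.

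In WT nodes interferon genes differed in both directions between migratory and resident DC1. The induced effectors Ifit1, Ifit3, Usp18, Rsad2, Oas2 and Mx1, the RNA sensor Ifih1 and the regulator Irf1 were higher in migratory WT DC1, while the signal carriers Irf7, Irf9, Stat2 and Ifnar1, the sensors Dhx58 and Eif2ak2 and the ubiquitin ligases Dtx3l and Trim25 were lower. That is 16 of 30 tested members past an adjusted p of 0.05 (limma, Benjamini-Hochberg over all genes tested), 8 in each direction. Because migration moved 49.2% of all tested genes, 16% upwards and 33.2% downwards, the members' share of 53.3% is near the background and only the direction and size of single genes are described. The median difference over the tested members was -0.01, against -0.16 over all genes. Arrays of the populations did not overlap for 10 members that read higher in migratory cells and 10 that read lower, beside 26.1% and 44.2% of all genes. Ifit1 passed the filter on dim genes only through migratory arrays and Eif2ak2 only through resident arrays, so a difference in those genes was built into their being tested. In a sorted bulk sample, fewer cells that express a gene and less of its RNA per cell cannot be told apart.

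**Figure D1:**
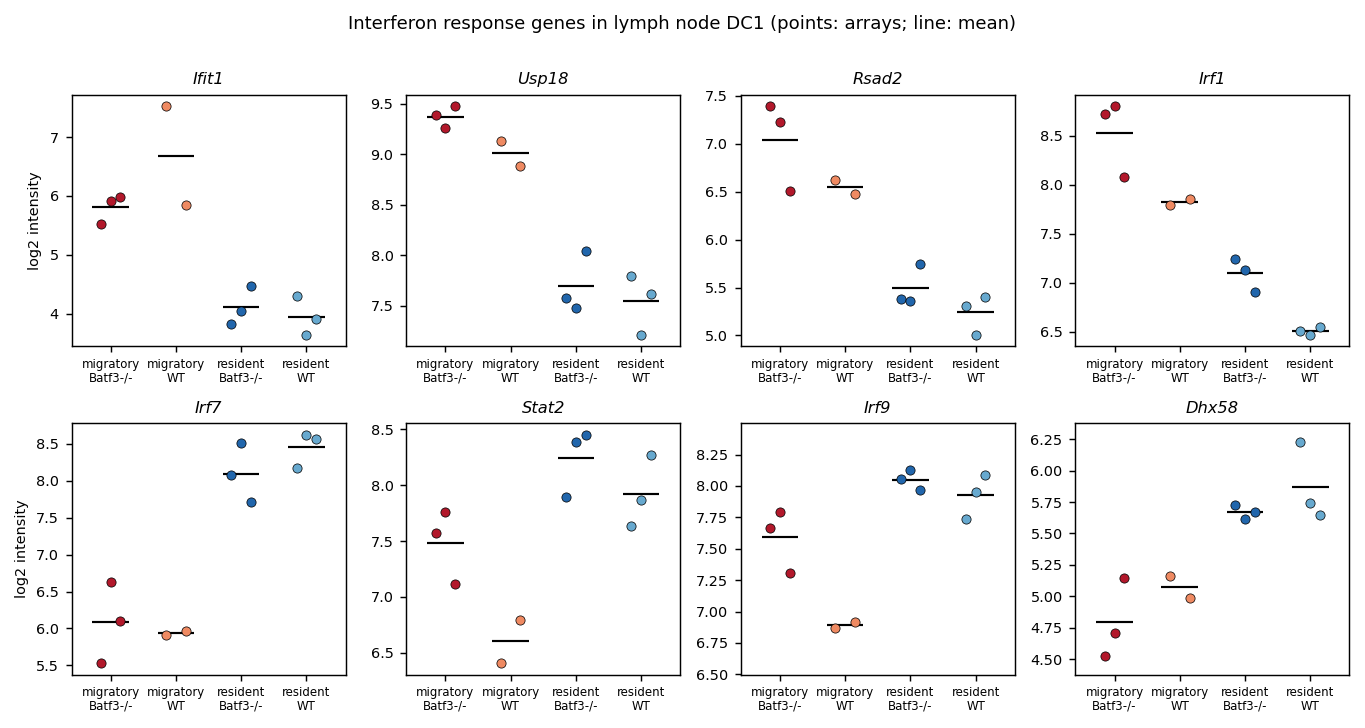
Log2 intensity of 8 interferon response genes on each lymph node array (points) with the group mean (line), each panel on its own vertical range. Within each genotype, every migratory array sits above every resident array for Ifit1, Usp18, Rsad2 and Irf1, and below every resident array for Irf7, Stat2, Irf9 and Dhx58.

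Among the regulators, Irf7, the factor that amplifies interferon production, had the largest fall of the tested members. Its level was 5.92 and 5.96 in migratory WT arrays, against 8.18, 8.62 and 8.57 in resident WT arrays. That is a log2 difference of -2.52 ± 0.30 (SE, adjusted p = 3.93e-05), a ratio of 0.175. The node titles carry numbers that arrays share, and these title codes are lettered A, B and C here. Within title codes A and B, which each hold a WT array of either population, the Irf7 difference was -2.26 and -2.66. Stat2, which carries the signal from the receptor into the nucleus, read 6.41 and 6.80 in migratory WT arrays, against 7.64, 7.86 and 8.27 in resident WT arrays, a difference of -1.32 ± 0.26 (adjusted p = 0.00139). Irf9, the DNA-binding partner of STAT2, read 6.87 and 6.92 in migratory WT arrays, against 7.74, 7.95 and 8.09 in resident WT arrays, a difference of -1.03 ± 0.19 (adjusted p = 0.000787). None of these groups overlapped, and the migratory arrays were the low ones in each. Plasmacytoid dendritic cells are a type rich in Irf7. Their markers summed to 470 to 722 units on migratory WT arrays, against 725 to 900 on resident WT arrays. Of the 6 tested, 1 was called higher and 1 lower in migratory WT cells, with a median of -0.14. The sum thus does not show the direction of single markers. The part of plasmacytoid cells in the Irf7 difference was not tested. Stat2 and Irf9 kept their calls after a second quantile normalization, at -0.87 and -0.58.

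Irf1, a factor induced by interferons and by maturation signals, moved the other way. It read 7.80 and 7.86 in migratory WT arrays, against 6.51, 6.47 and 6.55 in resident WT arrays, a difference of 1.32 ± 0.21 (adjusted p = 0.000377). The arrays of each population lay close together and far from those of the other. A dimmer probe set of Irf1 read 5.47 and 5.54 in migratory WT arrays, against 5.35, 5.46 and 5.30 in resident WT arrays, and with both probe sets averaged the difference was 0.73 and still past the threshold. Of the receptor chains, Ifnar1 read 7.35 and 7.09 in migratory WT arrays, against 8.03, 8.06 and 8.12 in resident WT arrays (-0.85 ± 0.24, adjusted p = 0.0101), and Ifnar2 differed by 0.25 ± 0.19 without passing the test. The Ifnar1 call was lost after a second quantile normalization (-0.41, adjusted p = 0.103) and without the second migratory WT array (-0.72, adjusted p = 0.0712).

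Ifit1 and Ifit3, whose products belong to a family that binds foreign RNA, and Usp18 were higher in migratory WT DC1. Ifit1 read 7.52 and 5.85 in migratory WT arrays, against 4.30, 3.64 and 3.91 in resident WT arrays. The migratory arrays differed from each other by more than any resident pair, and both lay above every resident array. The fitted difference was 2.73 ± 0.38 (adjusted p = 0.000119), and 3.22 and 2.21 within title codes A and B. All resident arrays lay below the table median of 4.82, so the size of this difference rests on a dim level and no ratio is given. Ifit3 read 7.14 and 6.29 in migratory WT arrays, against 5.31, 5.03 and 5.12 in resident WT arrays, a difference of 1.56 ± 0.34 (adjusted p = 0.00264). Ifit genes have near-identical neighbours, so a probe set annotated to 1 of them may also read its copy. Usp18, the protease that removes ISG15 and quiets the receptor, read 9.14 and 8.89 in migratory WT arrays, against 7.80, 7.21 and 7.62 in resident WT arrays (1.47 ± 0.22, adjusted p = 0.000214). Ifit2 was too dim to test, at 4.36 and 3.90 in migratory WT arrays and 4.36, 3.98 and 4.21 in resident WT arrays, and the groups overlapped.

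Of the other antiviral effectors, Rsad2 (viperin), which makes a nucleotide that stops viral polymerases, read 6.62 and 6.48 in migratory WT arrays, against 5.31, 5.01 and 5.40 in resident WT arrays (1.31 ± 0.24, adjusted p = 0.000847). The GTPase gene Mx1 read 6.39 and 6.57 in migratory WT arrays, against 5.57, 5.88 and 6.07 in resident WT arrays (0.64 ± 0.25, adjusted p = 0.0465). Its groups do not overlap, but the call was lost without either migratory WT array, without the first or the second resident WT array, and with title code as a block (0.59, adjusted p = 0.0754). Isg20, Bst2, Ifitm3 and Samhd1 did not pass the test, with differences between -0.39 and 0.04. Of the 5 tested OAS family genes, whose active enzymes make the activator of RNase L, only Oas2 passed. It read 5.02 and 5.83 in migratory WT arrays, against 5.07, 4.56 and 4.85 in resident WT arrays, so the groups overlapped (0.60 ± 0.23, adjusted p = 0.0432), and without the second migratory WT array the difference was 0.19 (adjusted p = 0.490). The call was also lost without the second or the third resident WT array.

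The cytosolic RNA sensors did not move together. Ifih1 read 6.74 and 6.56 in migratory WT arrays, against 6.21, 5.44 and 5.51 in resident WT arrays (0.94 ± 0.21, adjusted p = 0.00355). Dhx58, which encodes the regulatory relative LGP2, read 5.16 and 4.99 in migratory WT arrays, against 6.23, 5.74 and 5.65 in resident WT arrays (-0.80 ± 0.20, adjusted p = 0.00666). Eif2ak2, the double-stranded RNA kinase PKR that halts translation, read 4.76 and 4.33 in migratory WT arrays, against 4.95, 5.14 and 5.67 in resident WT arrays (-0.71 ± 0.22, adjusted p = 0.0170), and its call was lost without the second migratory or the third resident WT array. One of the sensors was thus high and the others low on the same arrays, while Zbp1, a sensor of Z-form nucleic acid, differed by -0.11 ± 0.24. In the ubiquitin and ADP-ribosylation group, Trim25, the ligase that helps RIG-I signal, read 5.28 and 5.74 in migratory WT arrays, against 6.98, 6.96 and 6.94 in resident WT arrays (-1.45 ± 0.37, adjusted p = 0.00683). Dtx3l, the ligase that pairs with PARP9, read 5.86 and 6.40 in migratory WT arrays, against 7.00, 6.82 and 6.95 in resident WT arrays (-0.79 ± 0.24, adjusted p = 0.0147). Parp9 and Parp14 did not pass. Without the first migratory WT array the calls of Trim25 (-1.22, adjusted p = 0.0709) and Dtx3l (-0.52, adjusted p = 0.166) were lost.

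Of the 16 genes, 15 differed in the same direction within both title codes, the exception being Oas2 at -0.05 in A and 1.27 in B. For those 15 this had to be so, because their arrays did not overlap between the populations, and it is no further support. When the fit also held each array's standard deviation, 3 members passed (Mx1 and Irf1 higher, Dhx58 lower), and the direction of Ifit3, Dtx3l, Trim25 and Ifnar1 turned. That spread did not overlap between the migratory and resident WT arrays, so the 2 cannot be told apart in this comparison. Another scaling moves the genome-wide balance, from 32.4% of called genes higher in migratory WT cells to 49.6% after a second quantile normalization and 27.1% after median centring, with a shift of the median of all genes from -0.16 to 0.03 or -0.24. Under these scalings 11 members were higher and 6 lower, and 6 higher and 8 lower, and none of the 16 changed sign.

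**Figure D2:**
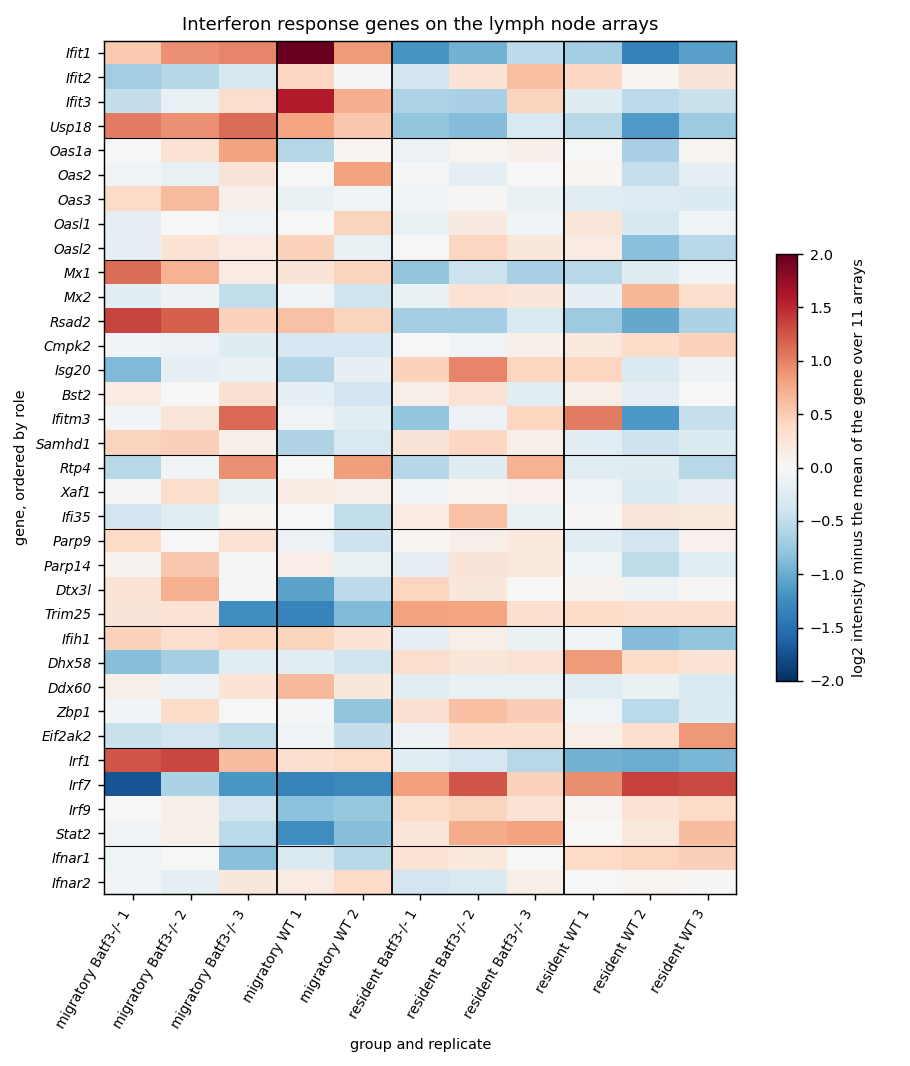
Log2 intensity of the 35 listed genes with a probe set in the lymph node table, minus the mean of the gene over the 11 arrays, with genes in rows by role and arrays in columns by group and replicate (colours stop at 2 on either side). Usp18, Rsad2 and Irf1 are red on migratory arrays and blue on resident arrays, Irf7 is the reverse, and Ifit1 and Ifit3 are reddest on the first migratory WT array.

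In Batf3-/- nodes too, members differed in both directions between the populations. There, 12 of 30 tested members passed, 6 higher and 6 lower in migratory DC1 (40%), beside 36.6% of all genes, 14.1% upwards and 22.6% downwards. The median was 0.10 over the tested members and -0.02 over all genes, and 7 members read higher and 7 lower without overlap, beside 20% and 26.8% of all genes. The 2 migration comparisons share no array, though they share title codes. They have 10 called members in common, all in the same direction, which is 62.5% of the WT list and 83.3% of the Batf3-/- list. The same overlap was not counted over all genes, of which 49.2% passed in WT and 36.6% in Batf3-/- cells. It is therefore not shown to be particular to these members. Ifit1, Irf1, Mx1, Rsad2 and Usp18 were higher in both genotypes, and Dhx58, Eif2ak2, Irf7, Irf9 and Stat2 lower in both.

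Irf7 read 5.53, 6.63 and 6.10 in migratory Batf3-/- arrays, against 8.08, 8.51 and 7.71 in resident Batf3-/- arrays (-2.01 ± 0.27, adjusted p = 8.57e-05). Irf1 read 8.72, 8.80 and 8.08 in migratory Batf3-/- arrays, against 7.25, 7.13 and 6.91 in resident Batf3-/- arrays (1.44 ± 0.19, adjusted p = 8.48e-05). Both genes separated the populations without overlap, in opposite directions. The plasmacytoid markers summed to 436 to 538 units on migratory Batf3-/- arrays, against 826 to 997 on resident Batf3-/- arrays. Of the 6 tested, 1 was called higher and 1 lower in migratory Batf3-/- cells, with a median of 0.11. Here too the sum does not show the direction of single markers, and the part of plasmacytoid cells was not tested. Stat2 read 7.58, 7.76 and 7.11 in migratory Batf3-/- arrays, against 7.90, 8.39 and 8.45 in resident Batf3-/- arrays (-0.76 ± 0.23, adjusted p = 0.0217), and Irf9 differed by -0.46 ± 0.17 (adjusted p = 0.0477). The Stat2 call was lost without the second or the third resident array or the third migratory array, and that of Irf9 without any of 5 of the 6 arrays.

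Usp18 read 9.39, 9.26 and 9.47 in migratory Batf3-/- arrays, against 7.58, 7.48 and 8.04 in resident Batf3-/- arrays (1.67 ± 0.20, adjusted p = 3.29e-05). Ifit1 read 5.53, 5.92 and 5.98 in migratory Batf3-/- arrays, against 3.83, 4.05 and 4.48 in resident Batf3-/- arrays (1.69 ± 0.34, adjusted p = 0.00185), where the resident level was again below the table median. Rsad2 read 7.39, 7.23 and 6.51 in migratory Batf3-/- arrays, against 5.38, 5.36 and 5.74 in resident Batf3-/- arrays (1.55 ± 0.22, adjusted p = 0.000116). The migratory arrays were the high ones in each of the 3 genes and no array overlapped. Mx1 read 7.24, 6.82 and 6.29 in migratory Batf3-/- arrays, against 5.35, 5.70 and 5.48 in resident Batf3-/- arrays (1.27 ± 0.22, adjusted p = 0.000628). Ifit3, by contrast, read 5.09, 5.42 and 5.91 in migratory Batf3-/- arrays and 4.94, 4.92 and 6.01 in resident Batf3-/- arrays, which overlap (0.18 ± 0.31, adjusted p = 0.686).

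Among the sensors of Batf3-/- cells, Dhx58 read 4.52, 4.71 and 5.15 in migratory arrays, against 5.73, 5.61 and 5.67 in resident arrays (-0.88 ± 0.18, adjusted p = 0.00226), and Eif2ak2 differed by -0.62 ± 0.19 (adjusted p = 0.0232), a call lost without any of 4 of the 6 arrays. Isg20, an exonuclease that degrades viral RNA, read 5.29, 6.02 and 6.04 in migratory arrays, against 6.64, 7.16 and 6.61 in resident arrays (-1.02 ± 0.25, adjusted p = 0.00647). Oas3 passed at 0.43 ± 0.14 (adjusted p = 0.0252), having reached the table median only on migratory Batf3-/- arrays, and its call was lost without any of 4 of the 6 arrays. All 12 calls had the same direction within each of the 3 title codes. This had to be so, because the arrays of the populations did not overlap for any of the 12, and it is no further support. With the title code as a block 13 members passed, Trim25 joining them (-0.87 ± 0.26, adjusted p = 0.0203, against 0.0591 without the block).

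**Figure D3:**
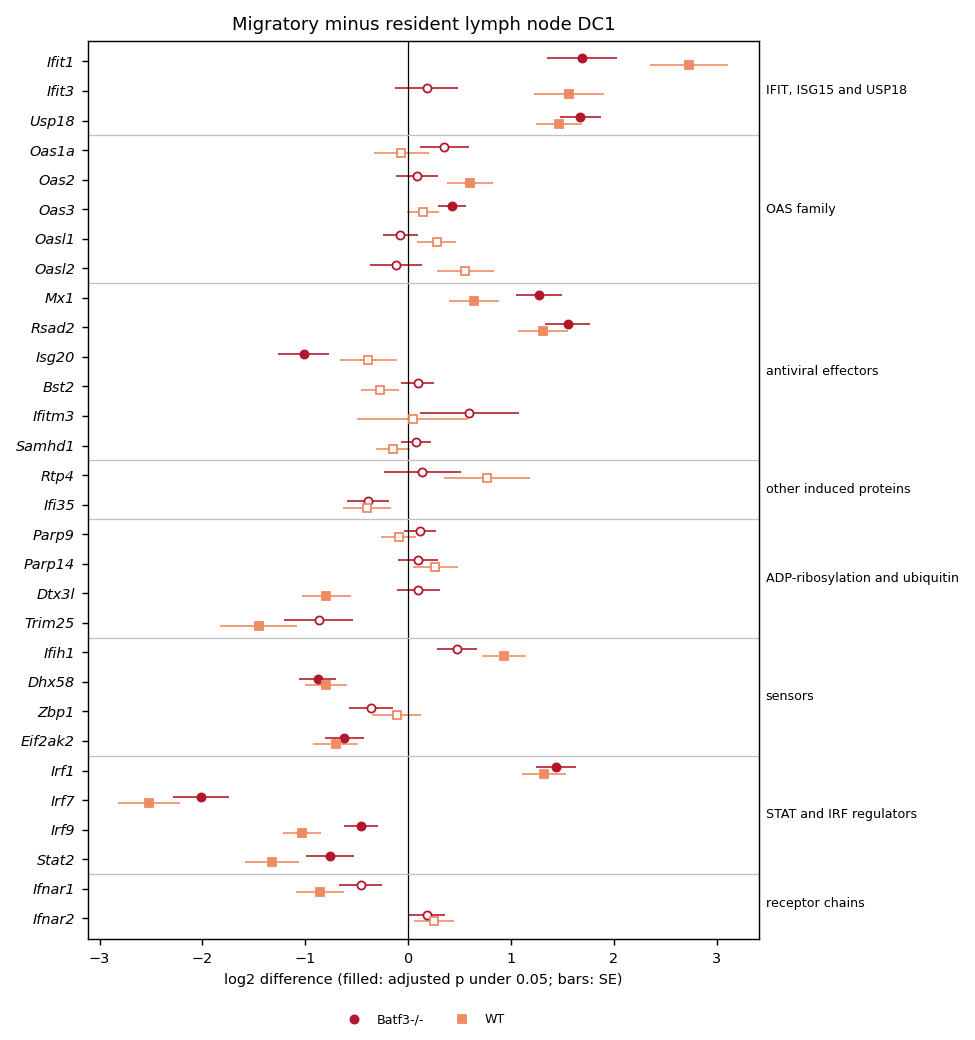
Log2 difference, migratory minus resident lymph node DC1, for the 30 tested members in Batf3-/- (circles) and WT (squares) cells, with SE bars, filled where the adjusted p is under 0.05, grouped by role. Irf7 is the furthest to the left in both genotypes at -2.01 and -2.52, and Usp18 lies to the right in both at 1.67 and 1.47. Ifit1, at 1.69 and 2.73, is measured against resident arrays below the table median.

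Members called in 1 genotype alone were 6 in WT (Dtx3l, Ifih1, Ifit3, Ifnar1, Oas2 and Trim25) and 2 in Batf3-/- cells (Isg20 and Oas3). This does not show that they differ between genotypes. The test of that difference, the Batf3 effect in migratory minus that in resident DC1, called 0 of 30 members (limma, 3 at an unadjusted p under 0.05), beside 1.24% of all genes past the threshold and 19.2% at an unadjusted p under 0.05. The members nearest to the threshold were Ifit3 (-1.38 ± 0.46, adjusted p = 0.140), Dtx3l (0.90 ± 0.32, adjusted p = 0.159) and Irf9 (0.57 ± 0.25, adjusted p = 0.241). Ifit3 passed with title code as a block (-1.57, adjusted p = 0.0438). Without the third migratory Batf3-/- array 5 members passed (Dtx3l, Ifit3, Irf9, Mx1 and Trim25), and without the second migratory WT array Ifit1 alone passed.

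In migratory DC1, Samhd1, Dtx3l and Irf9 were higher in Batf3-/- cells and Ifit3 lower, which is 4 of 30 tested members (13.3%), beside 9.41% of all genes, 7.13% upwards and 2.28% downwards. At an unadjusted p under 0.05 there were 13 of 30 members, beside 30% of all genes. The median was 0.24 over the tested members and 0.10 over all genes, and 10 members read higher and 2 lower without overlap, beside 24.2% and 12.4% of all genes. Samhd1, which depletes the nucleotides that retroviruses need, read 10.37, 10.40 and 10.03 in migratory Batf3-/- arrays, against 9.31 and 9.62 in migratory WT arrays (0.80 ± 0.17, adjusted p = 0.0168). Dtx3l read 7.20, 7.63 and 6.90 in migratory Batf3-/- arrays, against 5.86 and 6.40 in migratory WT arrays (1.12 ± 0.24, adjusted p = 0.0174). Irf9 read 7.67, 7.79 and 7.31 in migratory Batf3-/- arrays, against 6.87 and 6.92 in migratory WT arrays (0.70 ± 0.19, adjusted p = 0.0382). The Batf3-/- arrays were the high ones throughout, without overlap. Ifit3 read 5.09, 5.42 and 5.91 in migratory Batf3-/- arrays, against 7.14 and 6.29 in migratory WT arrays, also without overlap (-1.24 ± 0.34, adjusted p = 0.0412).

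These 4 calls rest on few arrays. None of them was left when only the migratory arrays were fitted, without the first migratory WT array, or without the first or the second migratory Batf3-/- array, and 9 members passed without the third migratory Batf3-/- array. Without the second migratory WT array the count was again 4, with Ifit1 (-1.71) among them and Irf9 not. With title code as a block 8 members passed, the 4 above with Irf1 (0.80), Oas3 (0.55), Stat2 (0.85) and Trim25 (1.10) higher in Batf3-/- cells. Oas3 reached the table median only on migratory Batf3-/- arrays, so a difference here was built into its being tested. Across the genome the share of called genes that were higher in Batf3-/- migratory cells was 75.8%, and 55.7% after a second quantile normalization. Markers moved with this comparison too: the B cell sum was 109 to 210 in migratory Batf3-/- arrays, against 226 to 286 in migratory WT arrays, and of the 7 DC1 markers 4 were lower and 1 higher in Batf3-/- cells, with a median of -0.92. The higher one was Irf8, at 12.37, 11.95 and 11.54 in migratory Batf3-/- arrays, against 10.46 and 10.97 in migratory WT arrays, and Xcr1, Cadm1, Clec9a and Tlr3 were the lower ones. Their part in the result was not tested.

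In resident DC1 no member passed between genotypes (0 of 30 by limma, 6 at an unadjusted p under 0.05), beside 1.84% of all genes past the threshold and 9.61% at an unadjusted p under 0.05. The median was 0.18 over the tested members and -0.01 over all genes. The arrays of the genotypes did not overlap for 5 members that read higher in Batf3-/- cells (Oas3, Isg20, Samhd1, Zbp1 and Irf1), beside 8.61% of all genes, and for 1 that read lower (Ifnar1), beside 11.2%. Oas3 lay below the table median on every resident array. Samhd1 read 10.18, 10.34 and 10.04 in resident Batf3-/- arrays, against 9.71, 9.50 and 9.64 in resident WT arrays (0.57 ± 0.15, adjusted p = 0.0922). Zbp1 read 7.03, 7.35 and 7.22 in resident Batf3-/- arrays, against 6.67, 6.19 and 6.45 in resident WT arrays (0.76 ± 0.21, adjusted p = 0.117). Irf1 read 7.25, 7.13 and 6.91 in resident Batf3-/- arrays, against 6.51, 6.47 and 6.55 in resident WT arrays (0.58 ± 0.19, adjusted p = 0.220). Samhd1 and Zbp1 passed when only the resident arrays were fitted (adjusted p = 0.0399 and 0.0385), and without the first resident WT array Ifih1 passed (0.75 ± 0.16, adjusted p = 0.0423). The DC maturation markers summed to 1531 to 3625 units on resident Batf3-/- arrays, against 770 to 1174 on resident WT arrays. Of the 6 markers 2 were called higher and 0 lower, and their part in these differences was not tested.

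**Figure D4:**
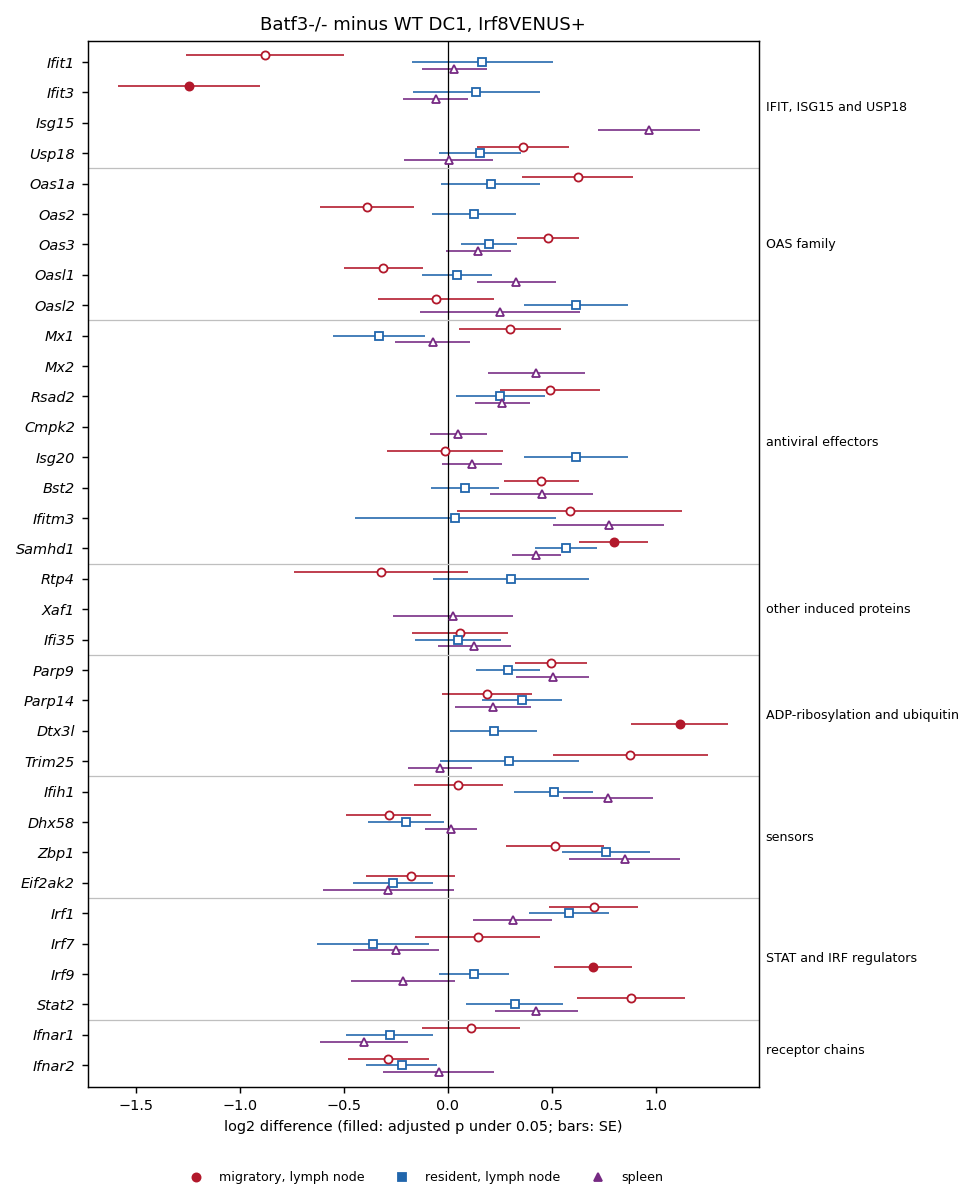
Log2 difference, Batf3-/- minus WT, for the tested members in migratory (circles) and resident (squares) lymph node DC1 and in spleen DC1 (triangles), all Irf8VENUS+, with SE bars, filled where the adjusted p is under 0.05. The filled points are Samhd1, Dtx3l, Irf9 and Ifit3 in migratory cells, and Samhd1 reads 0.80, 0.57 and 0.43 in the 3 populations.

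In spleen DC1 none of the 30 tested members passed between Batf3-/- and WT Irf8VENUS+ cells (limma, 6 at an unadjusted p under 0.05), beside 0.738% of all genes past the threshold and 10.4% at an unadjusted p under 0.05. Isg15, the ubiquitin-like protein that is conjugated to newly made proteins, read 6.56, 6.24 and 5.69 in Batf3-/- arrays, against 4.95, 5.47 and 5.15 in WT Irf8VENUS+ arrays. All Batf3-/- arrays were above all WT ones, and the difference was 0.97 ± 0.24 (adjusted p = 0.169). Samhd1 read 11.53, 11.45 and 11.24 in Batf3-/- arrays, against 10.86, 11.14 and 10.93 in WT Irf8VENUS+ arrays (0.43 ± 0.12, adjusted p = 0.217). Rsad2 and Parp9 also read higher without overlap, 4 members in all, beside 6.15% of all genes, and Ifnar1 read lower without overlap, beside 6.56%. Rsad2 reached the table median on 1 Batf3-/- array, 1 WT Irf8VENUS- array and 0 of 3 WT Irf8VENUS+ arrays. A difference from WT Irf8VENUS+ cells was thus built into its being tested. Ifih1 (0.77 ± 0.22), Zbp1 (0.85 ± 0.27) and Ifitm3 (0.78 ± 0.27) had larger differences than Samhd1 with arrays that overlapped. The DC maturation markers summed to 2211 to 3378 units on Batf3-/- arrays, against 644 to 1336 on WT Irf8VENUS+ arrays. Of the 6 markers 1 was called higher and 0 lower, and their part was not tested.

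Within WT spleen DC1, Irf8VENUS+ cells were set against Irf8VENUS- cells, and again 0 of 30 members passed (limma, 7 at an unadjusted p under 0.05), beside 0.0233% of all genes past the threshold and 7.91% at an unadjusted p under 0.05. The lowest adjusted p was that of Ifitm3, a membrane protein that blocks viral entry. It read 6.68, 6.92 and 7.80 in WT Irf8VENUS+ arrays, against 9.19 and 9.28 in WT Irf8VENUS- arrays (-2.62 ± 0.31, adjusted p = 0.0601), and 7.48, 6.91 and 9.33 in Batf3-/- Irf8VENUS+ arrays. In both Irf8VENUS+ groups the highest array was the one sorted on CD24 alone, and the fit has a term for the sort. Ifit1, Isg15, Mx1, Rsad2, Ifitm3 and Xaf1 read lower in WT Irf8VENUS+ cells without overlap, beside 10.3% of all genes, and Cmpk2, Bst2, Ifi35 and Irf7 higher, beside 14.6%. Cmpk2 passed the filter on dim genes only through Irf8VENUS+ arrays, so a difference from Irf8VENUS- cells was built into its being tested. For Rsad2 the limit given in the Batf3-/- comparison holds here too. Irf7 read 7.73, 7.22 and 7.40 in WT Irf8VENUS+ arrays, against 6.54 and 6.91 in WT Irf8VENUS- arrays (0.81 ± 0.24, adjusted p = 0.509). Ifi35 had a dimmer probe set whose groups overlapped. The labels do not say whether the Irf8VENUS- cells came from mice without the reporter allele.

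Batf3-/- Irf8VENUS+ against WT Irf8VENUS- spleen cells gave 0 of 30 calls (limma, 10 at an unadjusted p under 0.05), beside 0.559% of all genes past the threshold and 9.25% at an unadjusted p under 0.05. This comparison shares arrays with both of the others. Mx2, Cmpk2, Bst2, Samhd1, Ifi35, Parp9 and Irf7 read higher in Batf3-/- cells without overlap, beside 14.4% of all genes, and Usp18, Mx1, Xaf1 and Ifnar1 lower, beside 12.5%. The limit given for Cmpk2 above holds here too. Bst2 (tetherin), which holds budding virus at the cell surface, read 8.81, 8.68 and 9.38 in Batf3-/- arrays, against 7.24 and 8.21 in WT Irf8VENUS- arrays (1.08 ± 0.29, adjusted p = 0.222), and 8.34, 8.47 and 8.72 in WT Irf8VENUS+ arrays. Ifitm3 differed by -1.85 ± 0.31 (adjusted p = 0.0569) and passed at -2.04 when the array sorted on CD24 alone was left out of the Batf3-/- group (adjusted p = 0.0398).

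**Figure D5:**
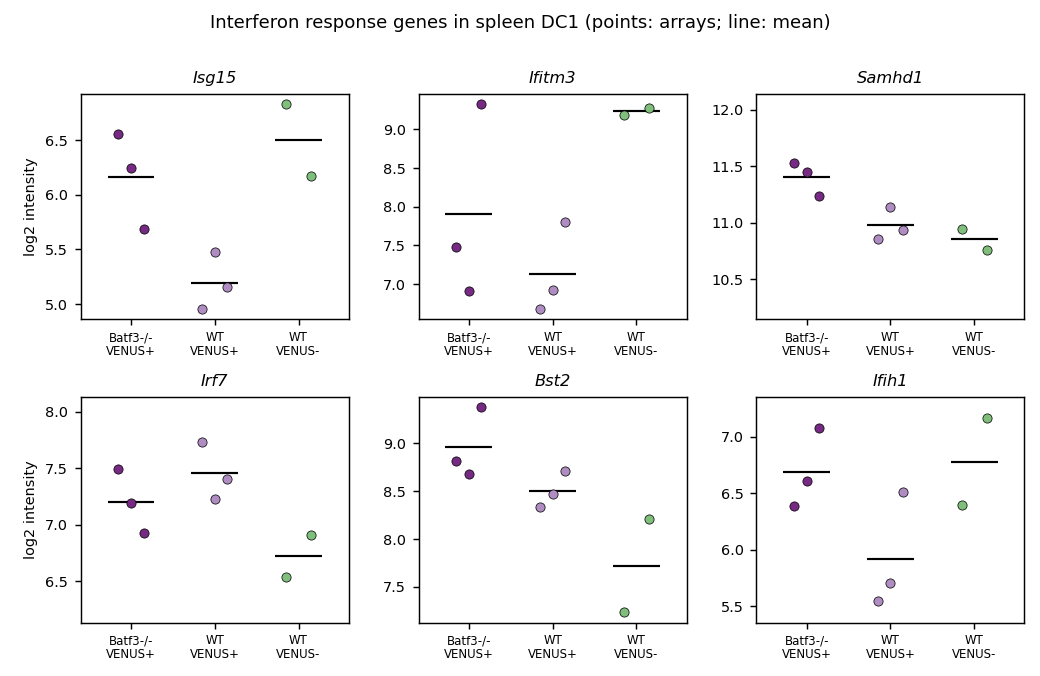
Log2 intensity of 6 interferon response genes on each spleen array (points) with the group mean (line), each panel on its own vertical range. Isg15 lies between 5.69 and 6.56 in Batf3-/- arrays, between 4.95 and 5.47 in WT Irf8VENUS+ arrays and at 6.17 and 6.83 in WT Irf8VENUS- arrays, while the Ifih1 arrays of Batf3-/- and WT Irf8VENUS+ cells overlap.

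The rest of the pathway was read from a wider list of 83 genes, 59 of them tested in the lymph node table and 63 in the spleen table. In WT cells 9 were higher and 23 lower on migration, beside 16% and 33.2% of all genes. By role these were 0 of 2 tested ligands, 2 lower of 5 kinases and feedback genes, 1 higher and 4 lower of 10 sensing adaptors and upstream factors, and 8 higher and 17 lower of 42 further induced genes. The double-stranded RNA receptor gene Tlr3 differed by -4.41 ± 0.24 (log2, SE) in WT cells, Trim30a by -2.12 ± 0.18, Ifi205 by -2.62 ± 0.26 and Slfn5 by -2.03 ± 0.22, while Epsti1 differed by 3.39 ± 0.22. In Batf3-/- cells 12 were higher and 24 lower, beside 14.1% and 22.6% of all genes, with Tlr3 (-5.02 ± 0.22), Ifi205 (-4.31 ± 0.23), the chemokine gene Cxcl9 (-2.82 ± 0.18) and Ifi207 (-2.43 ± 0.18) lower and Epsti1 (2.88 ± 0.20) higher. Epsti1 read 10.96, 10.98 and 10.60 in migratory Batf3-/- arrays and 10.53 and 10.69 in migratory WT arrays, against 8.40, 7.89 and 7.62 in resident Batf3-/- and 7.28, 7.30 and 7.07 in resident WT arrays.

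Between genotypes, 7 genes of the wider list were higher and 4 lower in migratory Batf3-/- cells than in migratory WT cells, beside 7.13% and 2.28% of all genes, among them Ifi205 (-2.62 ± 0.26), Cxcl9 (-1.42 ± 0.20), Ifi207 (-1.25 ± 0.21), Tlr3 (-1.20 ± 0.24) and Slfn2 (1.64 ± 0.30). Ifi205 read 5.89, 5.24 and 6.32 in migratory Batf3-/- arrays, against 8.33 and 8.55 in migratory WT arrays. In resident cells no gene of the list passed. In the spleen 2 of 63 passed, beside 0.738% of all genes, both higher in Batf3-/- cells: Epsti1 at 1.04 ± 0.14 (adjusted p = 0.0191) and Phf11b at 0.87 ± 0.13 (adjusted p = 0.0276).

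The promoter letters were set beside the direction of change as a description. Of members with a window, an ISRE core was in 4 of 5 that were higher in migratory WT cells, in 2 of 7 that were lower and in 4 of 10 that did not pass. In Batf3-/- cells the counts were 3 of 4, 2 of 5 and 5 of 13. Among the members with a match, Ifit1 and Oas3 passed the filter on dim genes only through migratory arrays. Eif2ak2, which also holds a match, passed it only through resident arrays. The direction of these members was thus built into their being tested. The AP-1 letters were in 2 of 5 higher, 0 of 7 lower and 3 of 10 other members in WT cells. The sets are small, and no match in a window says only that these letters are not in it.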

How the data were processed

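The spleen and lymph node DC1 were profiled on 2 Affymetrix designs and are kept apart throughout. The deposited spleen table holds linear probe-set intensity values and the deposited lymph node table holds log2 values. Both were summarised by RMA by the authors, per the submitters' processing notes; spleen intensities were turned to log2 here. RNA was amplified with the GeneChip WT Pico Kit, per the labels' protocols, and precision is limited by how few arrays each group has. Samples were grouped by title.

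Each gene was read from its brightest single-symbol probe set. Genes with at least 2 arrays at or above the table median (log2 5.04 in spleen, 4.82 in nodes) were tested, 12875 of 22180 in spleen and 11931 of 19938 in nodes. All arrays of a table entered 1 limma fit (limma 3.58.1, R 4.3.3, trended eBayes, two-sided), with a term for the sort in spleen, and p-values were adjusted by Benjamini-Hochberg over all genes tested, at 0.05. Every adjusted p in the text comes from these limma fits. The procedure was tested on simulated data. Of simulated log2 changes of 1 it called 51% for spleen Batf3-/- against WT Irf8VENUS+. It called 32% and 31% in the other spleen comparisons and 37% for the difference between Batf3 effects. In the other node comparisons it called 60% to 78%. Of changes of 2 it called 80% to 99%. Where no member passed, changes of 1 may thus have been missed. Members and lists were chosen with earlier results of these data known. Genes named are all members, the called genes of the wider list with the lowest adjusted p (at most 5 a comparison), and markers.

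Arrays of Batf3-/- migratory and resident cells with the same title code deviated together from their group means (correlations 0.416, 0.210 and 0.479). Between codes A and B the correlations were 0.218 and 0.184, and between C and the others -0.451 to -0.279. The code thus sets C apart but is not shown to pair arrays within A and B. Promoters came from RefSeq on GRCm38.p6, with a window for 28 members. Alternatives were the filter, scaling, probe sets, array weights, trend, samples fitted, array standard deviation, sort, title code block and leaving out each array.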

Additional observations from a re-analysis of the deposited data

How the results depend on the processing

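Members called on migration in the nodes kept their direction under all alternatives tried except a term for the standard deviation of each array, which left 3 called members in WT cells and turned Ifit3 (-0.93), Dtx3l (0.45), Trim25 (1.14) and Ifnar1 (0.085); in migratory Batf3-/- against WT cells it left 0 and turned Ifit3 (0.26). The cause was not tested. Leaving out 1 array gave 12 to 16 calls on WT migration, 8 to 12 on Batf3-/- migration, 0 to 9 between genotypes in migratory cells, 0 to 1 in resident cells and 0 to 5 for the difference between the Batf3 effects. In spleen it gave 0 to 1 for Batf3-/- Irf8VENUS+ against WT Irf8VENUS- and 0 in the other comparisons.

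Between genotypes in migratory cells (4 calls), array weights gave 8, the replicate block by title code 8 and a fit of the compared groups alone 0. In resident cells (0 calls), a second quantile normalization gave 1, array weights 5, the standard deviation term 2 and the compared groups alone 2. The difference between Batf3 effects (0 calls) had 1 under array weights and 1 under the replicate block. In spleen, array weights gave 1 for WT Irf8VENUS+ against Irf8VENUS- (Ifitm3), and for Batf3-/- Irf8VENUS+ against WT Irf8VENUS- 2, with 1 each under the stricter filter, the standard deviation term, CD24+XCR1+ arrays alone and the compared groups alone. The replicate block gave 16 calls on WT migration, with Rtp4 gained and Mx1 lost, and 13 on Batf3-/- migration. It gave 0 in resident cells and in each spleen comparison, where the numbers are not shown to pair arrays (correlations -0.066, 0.267 and 0.349).

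Of the values for called members under the alternatives, 402 stayed called in the same direction, 77 lost the call and 5 turned. Of the counts of called members, 109 stayed within 1.5 times and 25 did not. The share of called genes that were higher moved to 47.0% after a second quantile normalization for the difference between Batf3 effects, against 58.1% without it, and in spleen WT Irf8VENUS+ against Irf8VENUS- cells it was 66.7% of 3 called genes and 100% of the 1 called after median centring.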
